A study of Mus musculus with 8 samples.

Results

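The genes described are those of the lysosomal proteases and of the proton pump that acidifies the lysosome. They were chosen by symbol alone, as every row named *Cts* plus 1 letter, every *Atp6v0* or *Atp6v1* gene, and *Lamp1* and *Lamp2*. The rule found 43 of the 41325 gene symbols listed in each library, namely 18 cathepsins, 23 genes named for the vacuolar H+-ATPase (V-ATPase) and 2 lysosome-associated membrane proteins (LAMP). The 23 include *Atp6v1fnb*, which is named as the neighbour of *Atp6v1f* and not as a subunit, and which did not pass the limit given below. The rule reads symbols only and no measured value, although the set was proposed with earlier results of these data known. Of the 43 genes, 24 had an RPKM (reads scaled to exon length and to the mapped reads of the library) over 1 in at least 1 library and are called expressed below, namely 7 cathepsins, 15 V-ATPase genes and both LAMP genes. The expressed gene nearest to this limit was *Atp6v1c2*, which passed it in 1 library only, with an RPKM of 1.57. The gene nearest below it was *Atp6v1g2*, with a highest RPKM of 0.972.

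Lysosomes break down proteins, lipids and sugars delivered by endocytosis and autophagy. Their lumen is kept acidic by the V-ATPase, a rotary pump in which the cytosolic V1 sector hydrolyses ATP and the membrane V0 sector moves protons. Cathepsins are the lysosomal proteases, most of which are cysteine proteases, whereas cathepsin D is an aspartic and cathepsin A a serine protease. LAMP1 and LAMP2 are the heavily glycosylated proteins that line the lysosomal membrane. In cells that turn into adipocytes, lysosomes take part in the turnover of organelles and of stored lipid.

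RNA-seq was performed on C3H10T1/2, mouse mesenchymal stem cells (MSCs) kept as a line and able to become adipocytes. The 4 lines were shControl (genotype given as WT) and shKDM4D, shNFIB and shMLL1, in which a stably integrated pLKO.1 shRNA targets the histone demethylase KDM4D, the transcription factor NFIB or the histone methyltransferase MLL1. Each line was taken at day 0, after a rest at confluence and before induction, and at day 5, which gave 8 libraries with 1 library per condition. Induction was by a cocktail of insulin, dexamethasone and isobutylmethylxanthine, followed by insulin alone and then by medium with serum only. The knockdown lines were grown from puromycin-resistant clones, so that an effect of the clone and of the knockdown cannot be told apart. The 3 knockdown comparisons of a day share the same shControl library.

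With 1 library per condition there was no replicate error to test against, and no p-value is given. Ratios are log2 ratios of RPKM, and the 95% intervals in parentheses are exact binomial (Clopper-Pearson) intervals on the recovered reads, which cover counting error only. A gene was counted as higher or lower when its RPKM differed by more than 2-fold, and "rose" and "fell" are used only for such genes. Between 15800000 and 38200000 reads were mapped per library. Genes of rRNA-like sequence took 7.95% to 10.5% of the reads at day 0 and 3.07% to 3.62% at day 5. The targeted gene was lower in the matching line for *Nfib* (9.92 in shControl against 2.31 in shNFIB at day 0) and for *Kmt2a*, which encodes MLL1 (5.17 against 2.00 in shMLL1). *Kdm4d* was at or under an RPKM of 0.235 in all 8 libraries, so that its knockdown could not be judged from these reads.

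The identity of the cells was examined with marker genes. Of 7 MSC markers, 6 were expressed. *Thy1* lay between 11.1 and 25.0 RPKM in shControl and shMLL1 cells but between 0.0171 and 0.139 in shKDM4D and shNFIB cells, and *Nt5e* was at or under 0.0218 in all libraries. In shMLL1 cells *Thy1* was also more than 2-fold under shControl cells at both days. *Ly6a* was higher than in shControl cells at day 5 in shNFIB and shMLL1 cells, and lower at day 0 in shMLL1 cells. *Pdgfra* was lower in shMLL1 cells at day 5. The day 5 marker sums were 318, 246, 473 and 1062 RPKM in shControl, shKDM4D, shNFIB and shMLL1 cells. The sums do not stand for all markers alike. At day 5 the median log2 ratio of the 6 expressed markers to shControl was -0.26, 0.11 and 0.02 in shKDM4D, shNFIB and shMLL1 cells. Of 7 macrophage markers only *Cd14* was expressed (3.06 to 8.24), with *Tyrobp* at 0 and *Ptprc* at or under 0.00559 throughout. None of 6 osteoclast markers was expressed. Macrophages and osteoclasts are the cell types best known for high lysosomal protease and proton pump levels. The 6 adipocyte markers summed to 796 RPKM in shControl cells at day 5, whereas the sums of shKDM4D, shNFIB and shMLL1 cells were 25.5, 0.936 and 2.86. In these bulk samples, fewer cells of a type and less RNA per cell cannot be told apart.

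Among the cathepsins, *Ctsd*, *Ctsl*, *Ctsz* and *Ctsb* made up 90.2% to 94.3% of the summed cathepsin RPKM of a library. *Ctsd*, the aspartic protease cathepsin D, alone held 37.5% to 44.3%. *Ctsl*, *Ctsz* and *Ctsb*, which encode cysteine proteases, had mean levels of 98.3, 97.4 and 90.3 RPKM, and their order was not fixed. *Ctsl* was the highest of these genes at day 0 in shControl, shKDM4D and shMLL1 cells, *Ctsb* was the highest in shNFIB cells at day 0, and *Ctsz* was the highest at day 5 in shControl, shKDM4D and shNFIB cells. In shMLL1 cells at day 5 *Ctsl* (119) and *Ctsz* (116) were close to each other. The 11 cathepsins that were not expressed include *Ctss* (at or under 0.0386), known from antigen-presenting cells, *Ctsk* (0.0677 to 0.490), known from osteoclasts, and *Ctsg* of neutrophils, which was at 0 in all libraries. *Ctsj*, *Ctsm*, *Ctsq* and *Ctsr*, the placental group on chromosome 13, were at 0 apart from *Ctsq* at 0.0157 in 1 library. At 0 reads, the true level may still reach that of 3 reads, which for 1 kb of exons is an RPKM of 0.0785 in the deepest library and 0.189 in the shallowest.

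**Figure D1:**
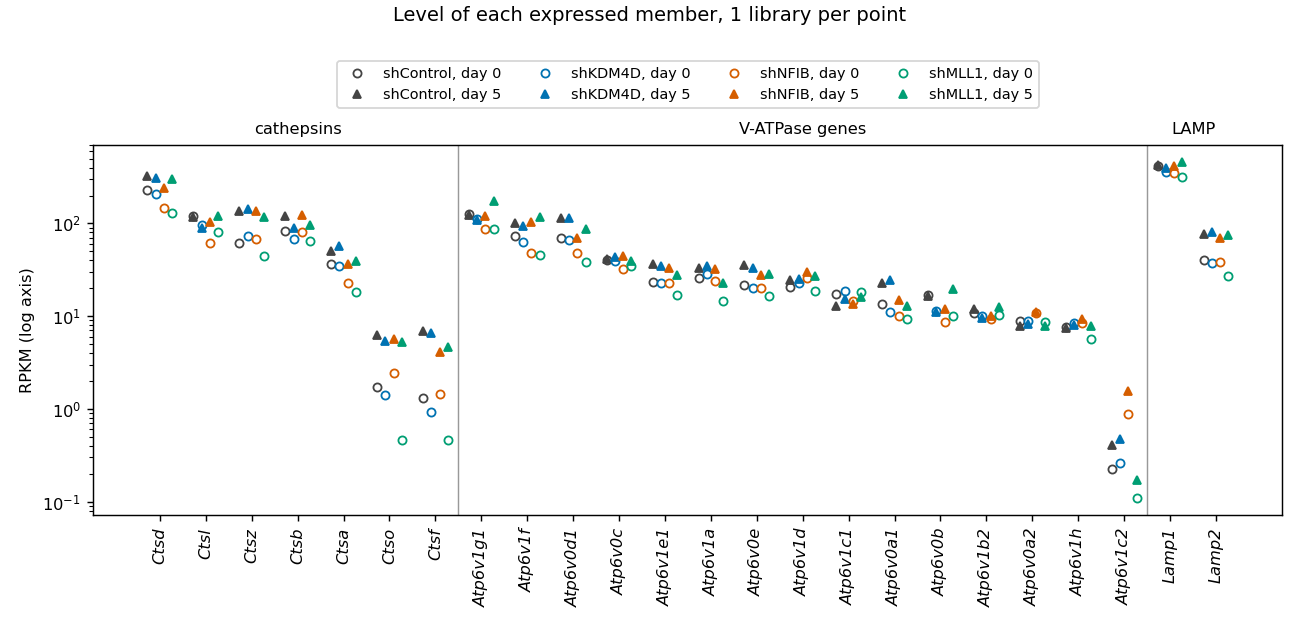
RPKM of the 24 expressed genes on a log axis, with 1 point per library (open circles, day 0; filled triangles, day 5; colours, the 4 lines). *Lamp1* and *Ctsd* stand at the top, *Ctso* and *Ctsf* show the widest gaps between days, and *Atp6v1c2* is the lowest gene, with its highest values in shNFIB cells.

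The promoters of these genes are of interest because transcription factor EB (TFEB) and its relatives, the known activators of lysosomal genes, bind an E-box with the core CACGTG. RefSeq promoter windows (build GRCm38.p6), from 250 bases upstream to 50 bases downstream of a transcription start, were at hand for 33 of the 43 genes and for 18 of the 24 expressed ones. CACGTG, which reads the same on both strands, was present in 7.15% of all 32851 promoters and in at least 1 promoter of 12.0% of the expressed genes of these cells. Among the 18 expressed genes described here, 9 had it (50%), namely *Lamp1*, *Ctsd*, *Ctsl*, *Ctsa*, *Ctsf*, *Atp6v0b*, *Atp6v0d1*, *Atp6v0e* and *Atp6v1a*. The longer palindrome TCACGTGA, which contains CACGTG, was present in 0.974% of all promoters, in 2.40% of the expressed genes and in 5 of the 18 (27.8%). None of the 15 genes that were not expressed and had a window carried CACGTG. These are matches of letters and not measured binding sites. The 6 sequences below, each from 150 bases upstream to 20 bases downstream of the start and with every CACGTG in capitals, show the *Lamp1* promoter with 4 copies, the promoters of 2 cathepsins, and those of 3 subunits from both sectors of the pump.
Lamp1 chr8:13159011-13159180, plus strand: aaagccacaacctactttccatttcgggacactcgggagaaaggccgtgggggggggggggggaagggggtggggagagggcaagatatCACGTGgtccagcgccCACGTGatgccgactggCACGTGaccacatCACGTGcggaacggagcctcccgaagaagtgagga
Ctsd chr7:142387808-142387977, minus strand: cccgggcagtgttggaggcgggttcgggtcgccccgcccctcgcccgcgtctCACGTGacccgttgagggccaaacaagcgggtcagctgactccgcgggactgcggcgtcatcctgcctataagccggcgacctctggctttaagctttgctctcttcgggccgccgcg
Ctsa chr2:164833623-164833792, plus strand: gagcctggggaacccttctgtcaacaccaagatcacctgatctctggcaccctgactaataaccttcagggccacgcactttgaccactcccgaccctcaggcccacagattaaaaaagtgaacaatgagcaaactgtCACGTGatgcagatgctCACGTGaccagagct
Atp6v0d1 chr8:105566045-105566214, minus strand: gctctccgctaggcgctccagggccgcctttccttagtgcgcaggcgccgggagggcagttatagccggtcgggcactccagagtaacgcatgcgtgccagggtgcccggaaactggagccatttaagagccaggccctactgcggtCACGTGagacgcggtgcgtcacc
Atp6v0b chr4:117887310-117887479, minus strand: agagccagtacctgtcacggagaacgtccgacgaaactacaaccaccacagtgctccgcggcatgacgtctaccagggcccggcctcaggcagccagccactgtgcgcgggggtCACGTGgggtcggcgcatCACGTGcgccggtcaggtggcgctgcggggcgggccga
Atp6v1a chr16:44139240-44139409, minus strand: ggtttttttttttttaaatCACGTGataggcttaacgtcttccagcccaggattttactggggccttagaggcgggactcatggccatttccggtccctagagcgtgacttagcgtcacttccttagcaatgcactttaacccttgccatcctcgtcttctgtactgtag

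*Lamp1* carries its 4 copies within 61 bases of the start. The *Ctsa* window is that of the second of 2 listed starts, and the first start has no copy. Both *Ctsa* copies and the printed copies of *Ctsd*, *Atp6v0d1* and *Atp6v1a* lie within TCACGTGA, whereas those of *Lamp1* and *Atp6v0b* do not. The other expressed genes with a window, *Ctso*, *Ctsz*, *Lamp2*, *Atp6v1f*, *Atp6v0a1*, *Atp6v0c*, *Atp6v1e1*, *Atp6v1d* and *Atp6v1c2*, had no CACGTG in it. Genes that rose by more than 2-fold at day 5 in some line were found with the motif (*Ctsf*, *Ctsd*, *Ctsa* and *Atp6v0d1*) and without it (*Ctso*, *Ctsz*, *Lamp2*, *Atp6v1f* and *Atp6v0a1*). A link between the motif and the change was not tested. *Atp6v1g1*, *Atp6v1c1*, *Atp6v1b2*, *Atp6v0a2*, *Atp6v1h*, *Atp6v0d2*, *Ctsb*, *Ctsw*, *Ctsh* and *Ctse* had no window in the table.

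The first question was how these genes differ between day 0 and day 5 in each line. All 4 lines had a higher cathepsin sum at day 5, also after quantile, median-of-ratios or *Gapdh* scaling. The summed cathepsin RPKM went from 533 to 759 in shControl cells (1.42-fold), from 482 to 702 in shKDM4D cells (1.46-fold), from 384 to 651 in shNFIB cells (1.69-fold) and from 341 to 682 in shMLL1 cells (2.00-fold). The V-ATPase sum went from 478 to 590 (1.23-fold), from 444 to 568 (1.28-fold), from 370 to 534 (1.45-fold) and from 337 to 600 (1.78-fold) in the same order, and when scaled to *Gapdh* it was slightly below the day 0 level in shNFIB cells (0.977-fold). The day 5 sums thus lay closer together than the day 0 sums. The median log2 change of the 7 expressed cathepsins was 0.55, 0.69, 0.75 and 1.20 in shControl, shKDM4D, shNFIB and shMLL1 cells, against 0.24, 0.18, 0.44 and 0.64 for the 15 V-ATPase genes and 0.03, 0.03, 0.09 and 0.17 for all expressed genes with reads at both days (11349 to 11406 genes). In every line the cathepsin median was thus above the pump median. Adipocyte markers moved very differently over the same libraries (796 RPKM in sum at day 5 in shControl against 0.936 in shNFIB cells), and their part in these changes was not tested.

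Counted by the 2-fold limit, 3 of the 24 expressed genes rose in shControl cells (12.5%, against 13.0% of all expressed genes) and 4 rose in shKDM4D cells (16.7% against 12.8%). In shNFIB cells 3 rose (12.5% against 12.6%), and in shMLL1 cells 8 rose (33.3% against 20.4%). The shares in shControl and shNFIB cells are thus near that of all genes. None of the 24 fell in any line, whereas 8.56%, 8.44%, 4.96% and 6.89% of all expressed genes fell in shControl, shKDM4D, shNFIB and shMLL1 cells. *Ctsf* and *Ctso* were past the limit in all 4 lines, although neither was in shNFIB cells when scaled to *Gapdh*, nor was *Ctso* there (0.98) with 1 added to each RPKM.

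*Ctsf* (cathepsin F, a cysteine protease, chr19:4855130-4860918) had an RPKM of 1.31 at day 0 and 6.99 at day 5 in shControl, 0.933 and 6.51 in shKDM4D, 1.44 and 4.09 in shNFIB, and 0.464 and 4.69 in shMLL1 cells. All 4 day 5 values were above all 4 day 0 values, and the lowest of the 8 was shMLL1 at day 0. The log2 change was 2.41 (2.17 to 2.66) in shControl, 2.80 (2.49 to 3.13) in shKDM4D, 1.51 (1.22 to 1.81) in shNFIB and 3.34 (3.03 to 3.67) in shMLL1 cells. Its reads did not come out whole with the annotated exon length, so that these intervals are approximate. *Ctso* (cathepsin O, another cysteine protease, chr3:81932601-81956725) had 1.71 and 6.22 in shControl, 1.41 and 5.35 in shKDM4D, 2.42 and 5.73 in shNFIB, and 0.460 and 5.20 in shMLL1 cells. Again the days did not overlap over the 4 lines, which are different lines and not replicates of a day. Its log2 change was 1.86 (1.64 to 2.08), 1.93 (1.66 to 2.20), 1.25 (1.02 to 1.48) and 3.50 (3.19 to 3.83) in the order of the lines. Both genes are scarce, with 89 to 234 reads per library at day 0. The same separation of the days was seen for *Ctsz*, *Ctsd*, *Ctsa*, *Ctsb*, *Lamp2*, *Atp6v0d1*, *Atp6v0e*, *Atp6v1e1* and *Atp6v1f*. No share of all expressed genes is given for it, so that it is not read as a trait of single genes.

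*Ctsz* (cathepsin Z, a carboxypeptidase, chr2:174427493-174439039) had 60.8 RPKM at day 0 and 136 at day 5 in shControl, 74.0 and 145 in shKDM4D, 67.9 and 135 in shNFIB, and 44.2 and 116 in shMLL1 cells. The day 5 values of all lines were above every day 0 value. The log2 changes in shControl, shKDM4D and shNFIB cells lay near the limit on either side of it, at 1.17, 0.97 and 0.99. In shMLL1 cells the change was larger, at 1.40 (1.33 to 1.47). *Ctsd* (chr7:142375911-142388038) had 229 and 322 in shControl, 207 and 311 in shKDM4D, 148 and 244 in shNFIB, and 131 and 301 in shMLL1 cells. The 4 lines were more alike at day 5 than at day 0, and the change passed 2-fold only in shMLL1 cells (log2 1.20, 1.17 to 1.23, against 0.49, 0.59 and 0.72 in shControl, shKDM4D and shNFIB cells).

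*Ctsa* (cathepsin A, the carboxypeptidase that also protects lysosomal sialidase and galactosidase, chr2:164832873-164841032) had 36.5 and 50.3 RPKM in shControl, 35.1 and 56.6 in shKDM4D, 22.8 and 36.7 in shNFIB, and 18.1 and 38.9 in shMLL1 cells. It was past 2-fold in shMLL1 cells only (log2 1.11, 1.05 to 1.17). *Ctsb* (cathepsin B, chr14:63122462-63145923) had 82.7 and 121, 67.2 and 88.3, 80.0 and 122, and 64.4 and 96.8 RPKM in the 4 lines. This was the most even of the abundant cathepsins, with log2 changes between 0.39 and 0.61. *Ctsl* (cathepsin L, chr13:64359337-64370890) had 121 and 116 RPKM in shControl, 95.8 and 88.9 in shKDM4D, 60.9 and 103 in shNFIB, and 81.6 and 119 in shMLL1 cells. It was slightly lower at day 5 in shControl (log2 -0.06, -0.09 to -0.03) and shKDM4D cells (-0.11, -0.14 to -0.07) and higher in shNFIB (0.75, 0.71 to 0.80) and shMLL1 cells (0.54, 0.52 to 0.57), and scaled to *Gapdh* the shKDM4D value turned to 0.36.

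**Figure D2:**
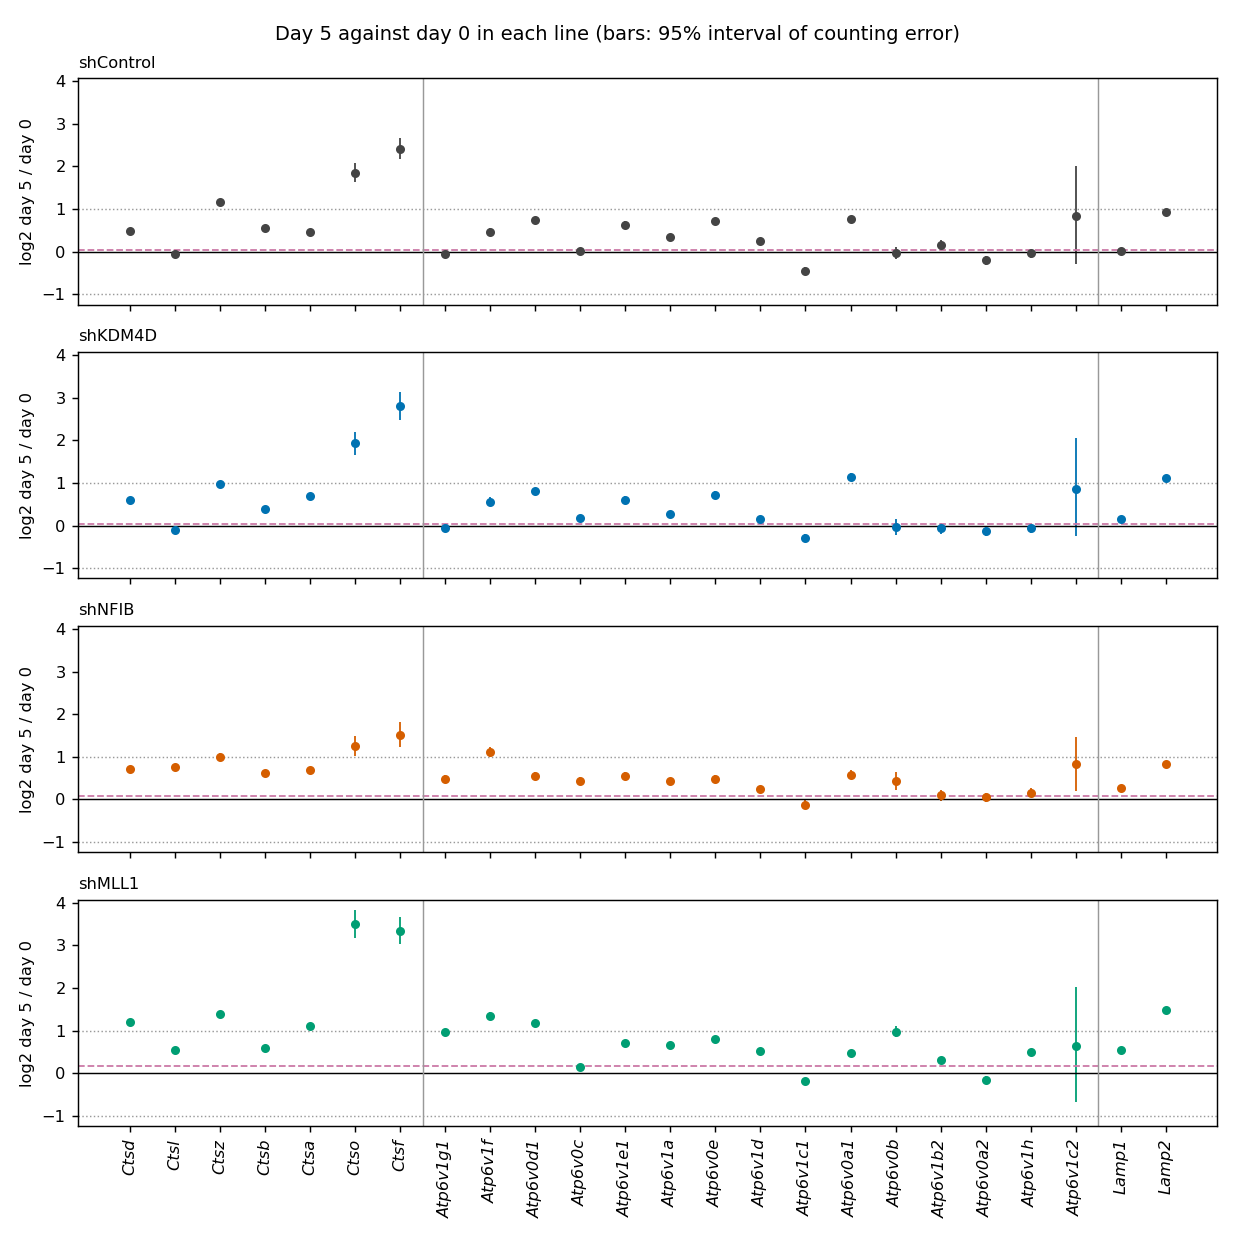
Log2 ratio of day 5 to day 0 for the 24 expressed genes in each line, with bars for the 95% interval of counting error, dotted lines at 2-fold and a dashed line at the median of all expressed genes. *Ctso* and *Ctsf* lie above the upper dotted line in all 4 panels, and 8 genes do so in shMLL1 cells.

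The LAMP genes differed from each other. *Lamp1* (chr8:13159161-13175338) was the most abundant gene of the set, with 416 and 423 RPKM in shControl, 361 and 398 in shKDM4D, 347 and 415 in shNFIB, and 314 and 461 in shMLL1 cells. Its log2 change was 0.02, 0.14, 0.26 and 0.56, so that it did not pass 2-fold in any line. *Lamp2* (chrX:38401357-38456454), whose product also takes part in chaperone-mediated autophagy, had 40.5 and 76.9 in shControl, 37.8 and 81.5 in shKDM4D, 38.7 and 69.1 in shNFIB, and 27.2 and 75.5 in shMLL1 cells. All day 5 values exceeded all day 0 values. *Lamp2* rose past 2-fold in shKDM4D (log2 1.11, 1.07 to 1.15) and shMLL1 cells (1.48, 1.44 to 1.51) and stood at 0.93 and 0.84 in shControl and shNFIB cells.

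In the V1 sector, *Atp6v1f* (subunit F of the central stalk, chr6:29467718-29470512) had 72.4 and 100.1 RPKM in shControl, 63.1 and 93.0 in shKDM4D, 48.1 and 104 in shNFIB, and 45.6 and 116 in shMLL1 cells. It rose in shNFIB (log2 1.12, 1.00 to 1.23) and shMLL1 cells (1.35, 1.27 to 1.43), against 0.47 and 0.56 in shControl and shKDM4D cells. The call in shNFIB cells was lost with quantile (0.94) and *Gapdh* scaling (0.55). *Atp6v1g1* (subunit G of the peripheral stalk, chr4:63544772-63550750), the most abundant pump gene, had 127 and 123, 113 and 109, 86.4 and 121, and 88.1 and 173 RPKM in the 4 lines. The highest of its 8 values was thus shMLL1 at day 5. The log2 change was -0.05 in both shControl and shKDM4D, 0.48 in shNFIB and 0.97 (0.92 to 1.03) in shMLL1 cells. *Atp6v1a* and *Atp6v1b2*, which encode the subunits A and B of the ATP-hydrolysing head, did not pass 2-fold between the days in any line (log2 0.28 to 0.67 and -0.07 to 0.30).

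In the V0 sector, *Atp6v0d1* (subunit d, which links the rotor to the stalk, chr8:105524465-105566047) had 69.3 and 115 RPKM in shControl, 65.8 and 116 in shKDM4D, 47.4 and 69.4 in shNFIB, and 38.6 and 87.5 in shMLL1 cells. It rose past 2-fold in shMLL1 cells only (log2 1.18, 1.12 to 1.25). *Atp6v0c* (the proteolipid c of the proton-carrying ring, chr17:24163866-24169702) had 40.6 and 40.9, 38.8 and 43.9, 32.6 and 44.0, and 34.8 and 38.8 RPKM, with log2 changes between 0.01 and 0.43. *Atp6v0a1* (the a1 form of the subunit that forms the proton path, chr11:101009452-101063719) had 13.4 and 22.7, 11.1 and 24.7, 9.97 and 14.9, and 9.28 and 12.8 RPKM. The 2 highest values belonged to shControl and shKDM4D cells at day 5, and the gene rose past 2-fold in shKDM4D cells only (log2 1.15, 1.06 to 1.24).

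The second question was how each knockdown line differed from shControl cells at the same day. At day 0, no expressed gene of the set was past 2-fold in shKDM4D cells in either direction (all expressed genes, 1.98% higher and 4.26% lower). In shNFIB cells 1 was higher, *Atp6v1c2*, and none was lower (2.95% and 6.05%). This gene counts as expressed only through shNFIB cells at day 5, so that its call is not independent of the filter. In shMLL1 cells none was higher (1.67%) and 4 of 24 were lower (16.7%, against 7.43%), namely *Ctso*, *Ctsf*, *Ctsa* and *Atp6v1c2*. This count was 0 with 1 added to each RPKM, 2 with median-of-ratios and 7 with *Gapdh* scaling. The 4 calls in shMLL1 cells include genes with few reads, and *Atp6v1c2* with 9 reads against 13 had an interval that held 0 (log2 -1.05, -2.46 to 0.29). Below the 2-fold limit the shMLL1 genes lay on 1 side as well, since 23 of the 24 were under the shControl level at day 0 (57.5% of all expressed genes), with a median log2 ratio of -0.80 for cathepsins and -0.46 for pump genes against -0.07 for all expressed genes. With quantile, median-of-ratios and *Gapdh* scaling 21, 21 and 24 of them were under it, against 46.9%, 48.8% and 78.0% of all expressed genes. In shNFIB cells the medians were -0.05 and -0.20 against 0.03, and in shKDM4D cells -0.28 and -0.07 against 0.00.

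*Ctso* in shMLL1 cells at day 0 stood at 0.460 RPKM against 1.71 in shControl cells (log2 -1.90, -2.27 to -1.54), and *Ctsf* stood at 0.464 against 1.31 (-1.50, -1.89 to -1.13). *Ctsa* was at the limit, with 18.1 against 36.5 (-1.01, -1.08 to -0.95), and *Ctsd* was within it, with 131 against 229 (-0.80, -0.84 to -0.77). In shNFIB cells the gene closest to the lower limit was *Ctsl*, with 60.9 against 121 (-0.99, -1.03 to -0.96).

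At day 5, none of the 24 was past 2-fold in shKDM4D cells (all expressed genes, 1.88% higher and 4.57% lower). In shNFIB cells *Atp6v1c2* was higher and none was lower (5.54% and 5.67%), and in shMLL1 cells *Atp6v1c2* was lower and none was higher (4.02% and 5.25%). As *Atp6v1c2* passed the RPKM limit only in this shNFIB library, its call in shNFIB cells follows in part from the filter. The cathepsin medians were -0.10, -0.18 and -0.26 in shKDM4D, shNFIB and shMLL1 cells, and the pump medians were 0.02, -0.02 and 0.00, beside 0.01, 0.09 and 0.07 for all expressed genes. The cathepsin sum of shMLL1 cells was thus 0.638 times that of shControl cells at day 0 and 0.898 times at day 5. The matching figures were 0.720 and 0.857 for shNFIB cells, of which the first turned to 1.12 with *Gapdh* scaling, and 0.903 and 0.925 for shKDM4D cells.

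**Figure D3:**
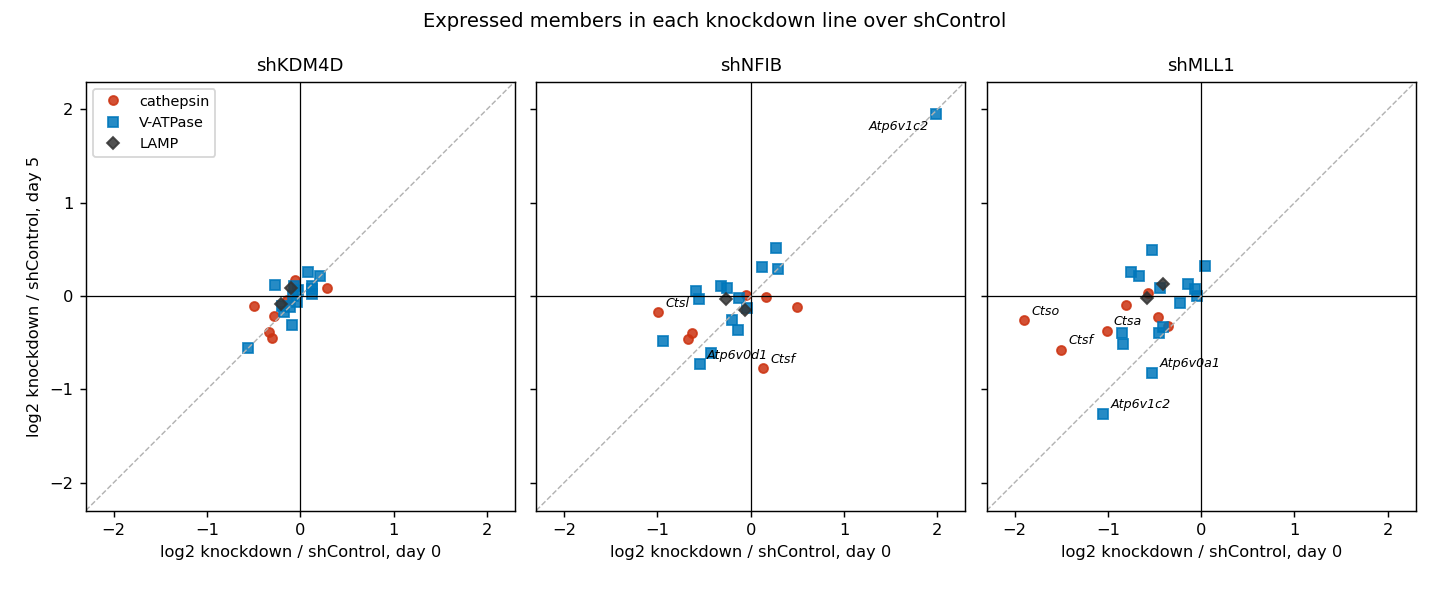
Log2 ratio of each knockdown line to shControl for the 24 expressed genes, at day 0 on the horizontal and at day 5 on the vertical axis, with the dashed line at equal ratios. In shMLL1 cells 23 of 24 genes lie left of 0 at day 0, and 22 of 24 lie above the dashed line, that is, at a higher ratio to shControl at day 5 than at day 0.

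The change from day 0 to day 5 was therefore set against that of shControl cells gene by gene. For each gene this difference equals its day 5 ratio to shControl minus its day 0 ratio. For shMLL1 cells it thus rests on the same day 0 library as the low day 0 ratios above. Every count between days in shMLL1 cells uses that library too. In shMLL1 cells 22 of 24 genes had a larger change (64.2% of all expressed genes), with a median difference of 0.39 on the log2 scale against 0.15. The count was 17 to 20 with the other scalings, at 48.2% to 50.8% of all expressed genes. *Atp6v0a1* (-0.30, -0.41 to -0.19) and *Atp6v1c2* had a smaller change. In shNFIB cells 13 of 24 were larger (56.0%, median 0.08 against 0.07) and in shKDM4D cells 14 of 24 (51.8%, 0.04 against 0.01), both near the share of all expressed genes. As the intervals hold no spread between cultures, they say only whether a difference exceeded counting error. The widest differences in shMLL1 cells were 1.64 (1.26 to 2.02) for *Ctso*, 1.02 (0.93 to 1.11) for *Atp6v1g1* and 1.01 (0.82 to 1.20) for *Atp6v0b*, the c'' proteolipid of the ring. In shNFIB cells *Ctsl* had the widest difference above 0 (0.82, 0.76 to 0.87), and *Ctsf* (-0.91, -1.28 to -0.53) and *Ctso* (-0.61, -0.93 to -0.30) the widest below 0.

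Within the pump, both sectors were lower at day 0 in shNFIB and shMLL1 cells, with V0 sums of 0.756 and 0.688 times and V1 sums of 0.785 and 0.714 times that of shControl cells. Scaled to *Gapdh*, the shNFIB sums were above the shControl sums at day 0 (1.18 and 1.22 times). At day 5 the sectors parted. In shControl, shKDM4D, shNFIB and shMLL1 cells the V0 sums were 240.3, 238, 179 and 196 RPKM and the V1 sums were 349.5, 330.2, 355 and 404. The V0 sum was thus 0.747 and 0.815 times the shControl sum in shNFIB and shMLL1 cells, and the V1 sum was 1.02 and 1.16 times. On every other scaling the V0 ratio stayed below 1 in both lines and below the V1 ratio, whereas the V1 ratio fell below 1 in shNFIB cells with median-of-ratios (0.960) and in shMLL1 cells with *Gapdh* scaling (0.902). *Atp6v0a1* (log2 -0.61 and -0.82), *Atp6v0d1* (-0.73 and -0.40) and *Atp6v0e* (-0.37 and -0.33) were below the shControl level in both lines at day 5. Single genes did not all follow their sector, since *Atp6v0a2* (0.52) and *Atp6v0c* (0.10) in shNFIB and *Atp6v0b* (0.26) in shMLL1 cells were above it, and the V1 genes *Atp6v1a* (-0.51) and *Atp6v1e1* (-0.39) in shMLL1 cells below it. None of these passed 2-fold, and the sums are led by *Atp6v0d1*, *Atp6v1g1* and *Atp6v1f*.

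Several subunits have more than 1 gene, and forms of a subunit are known to direct the pump to different membranes. One gene held nearly all of the RPKM for subunits d, e, B, E and G, with *Atp6v0d1*, *Atp6v0e*, *Atp6v1b2*, *Atp6v1e1* and *Atp6v1g1* at or above 97.8% in all libraries. The kidney and osteoclast forms *Atp6v0a4*, *Atp6v1b1* and *Atp6v0d2* stayed at or under 0.460 RPKM. Subunit a was split. *Atp6v0a2* (the a2 form, best known from the Golgi and endosomes, chr5:124628576-124724455) had 8.96 and 7.78 RPKM in shControl, 8.84 and 8.14 in shKDM4D, 10.8 and 11.1 in shNFIB, and 8.66 and 7.80 in shMLL1 cells. It varied little, whereas *Atp6v0a1* was higher at day 5, so that the a2 share of the subunit a RPKM went from 40.1% to 25.5% in shControl, from 44.1% to 24.8% in shKDM4D, from 51.7% to 42.6% in shNFIB and from 48.0% to 37.7% in shMLL1 cells. The 2 lines with the highest a2 share at day 5 were thus shNFIB and shMLL1. *Tcirg1*, which encodes the a3 form, is named outside the rule and is not in these shares, which would all be lower with it. It had 5.88 and 4.06 RPKM in shControl, 6.64 and 4.29 in shKDM4D, 5.92 and 6.96 in shNFIB, and 6.25 and 10.7 in shMLL1 cells. At day 5 it was higher in shMLL1 than in shControl cells (log2 1.40, 1.24 to 1.57). In shMLL1 cells at day 5 it was also above *Atp6v0a2*. With *Tcirg1* counted, the day 5 gap in a2 share between shMLL1 and shControl cells would thus be smaller.

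*Atp6v1c2* (the C2 form of the subunit that couples V1 to V0, chr12:17284721-17329359) was scarce, and it passed the RPKM limit only in shNFIB cells at day 5. Its calls as higher in shNFIB cells thus rest on a filter that it passed through that line. It had 0.224 and 0.405 RPKM at day 0 and day 5 in shControl, 0.259 and 0.468 in shKDM4D, 0.887 and 1.57 in shNFIB, and 0.108 and 0.169 in shMLL1 cells. These values stand for 9 to 54 reads per library. Both shNFIB values were above, and both shMLL1 values below, those of all other libraries. Relative to shControl, shNFIB cells stood at 1.98 (1.03 to 3.02) on the log2 scale at day 0 and at 1.95 (1.15 to 2.83) at day 5, and shMLL1 cells at -1.26 (-2.39 to -0.15) at day 5. Its share of the subunit C RPKM was 5.69% and 10.4% in shNFIB cells and between 0.596% and 3.08% in the other libraries, the rest being *Atp6v1c1*.

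**Figure D4:**
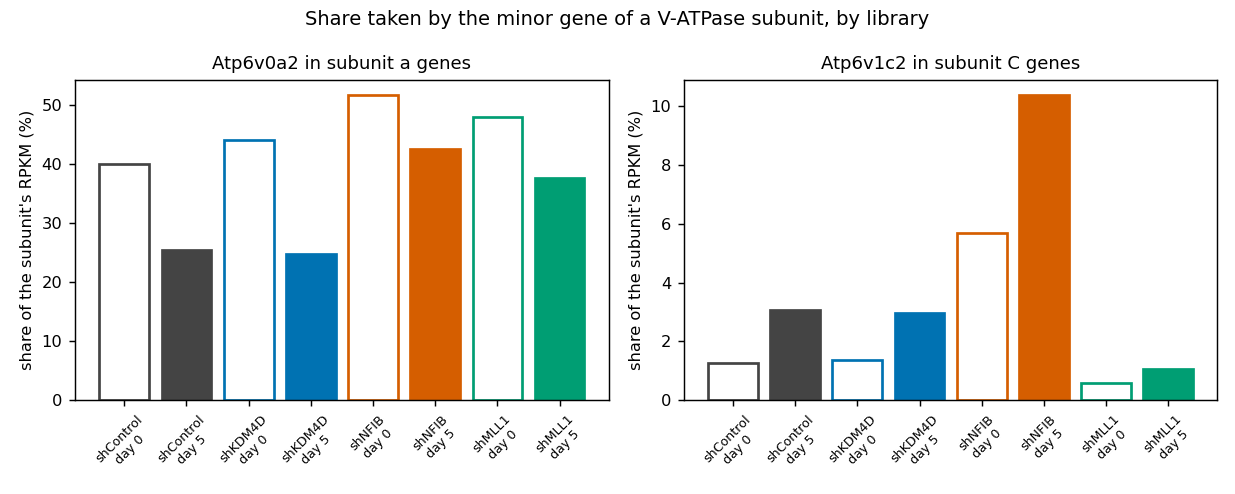
Share of the subunit a RPKM held by *Atp6v0a2* (left) and of the subunit C RPKM held by *Atp6v1c2* (right), with 1 bar per library (open, day 0; filled, day 5). The subunit a RPKM leaves out the a3 gene *Tcirg1*. The a2 share is lower at day 5 than at day 0 in all 4 lines, and the C2 share is highest in shNFIB cells.

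Other genes of the lysosome were read in the same way from lists by function. Of 34 other lysosomal enzymes 33 were expressed. In shControl, shKDM4D, shNFIB and shMLL1 cells 4, 8, 10 and 18 of them rose at day 5 and none fell, beside 13.0%, 12.8%, 12.6% and 20.4% of all expressed genes that rose. At day 0, 11 of the 33 were lower in shMLL1 than in shControl cells (7.43% of all expressed genes), and at day 5 none was. *Naglu*, which degrades heparan sulphate, had 13.9 RPKM at day 0 and 24.4 at day 5 in shControl, 7.78 and 23.9 in shKDM4D, 9.45 and 22.7 in shNFIB, and 5.07 and 32.8 in shMLL1 cells. *Gaa*, the acid glucosidase of glycogen breakdown, had 34.9 and 56.2 in shControl and 13.7 and 59.0 in shMLL1 cells. For both enzymes shMLL1 was the lowest library at day 0, as it was for *Ctsa*, *Ctsd*, *Ctso* and *Ctsf*.

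Of 19 other lysosomal membrane and carrier proteins 17 were expressed, and 3, 2, 4 and 11 of them rose in shControl, shKDM4D, shNFIB and shMLL1 cells, with none falling. These are 17.6%, 11.8%, 23.5% and 64.7% of the 17, against 13.0%, 12.8%, 12.6% and 20.4% of all expressed genes, so that the first and second are near the background. *Npc2*, the cholesterol carrier of the lysosomal lumen, had 35.9 and 82.4 RPKM in shControl and 22.3 and 93.5 in shMLL1 cells. Of 14 V-ATPase genes named outside the rule 13 were expressed, and of these *Tmem9* alone rose in shControl (6.64 to 20.4), shKDM4D (7.17 to 19.2) and shNFIB cells (5.74 to 12.5), joined in shMLL1 cells (5.26 to 15.3) by *Oxr1*. These are 7.69% of the 13 in shControl, shKDM4D and shNFIB cells and 15.4% in shMLL1 cells, not above the background shares. Among 7 genes that deliver enzymes to lysosomes, *Gnptg* and *Sort1* rose in all 4 lines (28.6% of the list, against the same background shares). *Gnptg*, a subunit of the enzyme that makes the mannose 6-phosphate tag, had 6.68 and 13.7 in shControl and 3.34 and 15.1 in shMLL1 cells. Against shControl, *Sort1* was lower at day 5 in all 3 knockdown lines. At day 0 *Sort1* was lower in shKDM4D and shMLL1 and *Gnptg* in shNFIB cells (each 14.3% of the 7). *Gm2a* was lower in all 3 at both days, joined by *Cd68* at day 0 and in shNFIB cells at day 5 (5.88% or 11.8% of the 17). In shKDM4D, shNFIB and shMLL1 cells 4.26%, 6.05% and 7.43% of all expressed genes were lower at day 0. At day 5 these shares were 4.57%, 5.67% and 4.02%.

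The cathepsin inhibitors were mixed. *Cst3*, which encodes the secreted cysteine protease inhibitor cystatin C, rose in all 4 lines, from 102 to 465 RPKM in shControl, 90.8 to 461 in shKDM4D, 66.6 to 393 in shNFIB and 73.3 to 458 in shMLL1 cells. This change (log2 2.18 to 2.64) was larger than that of any cathepsin over an RPKM of 10. *Cstb*, the cytosolic inhibitor cystatin B, had 142 and 134 in shControl and 116 and 124 in shMLL1 cells. *Serpinb1a* fell in shControl (58.3 to 23.6), shKDM4D (59.1 to 21.3) and shNFIB cells (93.5 to 39.7). *Serpinb6b* fell in shKDM4D cells (2.19 to 0.818), and *Serpina3g* rose in shMLL1 cells (2.64 to 16.5, log2 2.65). Of 8 listed inhibitors 6 were expressed, and *Csta2* was not found among the symbols. Of these 6, 16.7%, 16.7%, 16.7% and 33.3% rose in the order of the lines, against 13.0%, 12.8%, 12.6% and 20.4% of all expressed genes. The shares that fell were 16.7%, 33.3%, 16.7% and 0%, against 8.56%, 8.44%, 4.96% and 6.89%.

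Few regulators of lysosomal genes passed the 2-fold limit. Of 13 listed, 12 were expressed, and *Mitf* in shMLL1 cells (0.608 to 1.31 RPKM) was the only one past 2-fold in any of the 10 comparisons. This is 8.33% of the 12, against 20.4% of all expressed genes that rose in shMLL1 cells. Below the limit, their median log2 change between days was 0.12, 0.11, 0.29 and 0.50 in the order of the lines. The medians of all expressed genes were 0.03, 0.03, 0.09 and 0.17. At day 0 the median ratio of shMLL1 to shControl cells was -0.34 for the regulators, against -0.07 for all expressed genes. *Tfeb* lay between 1.42 and 2.04 and *Tfe3* between 3.95 and 5.64 RPKM over the 8 libraries. RNA levels hold no information on where these factors were in the cell, which is how they are mainly controlled. Interferon-induced genes stood apart in the shNFIB and shMLL1 lines, as at day 5 all 8 expressed genes of the list were higher in shNFIB and 7 of them in shMLL1 cells (5.54% and 5.25% of all expressed genes). Their day 5 sums were 106 RPKM in shControl and 95.2 in shKDM4D cells but 1003 and 1976 in shNFIB and shMLL1 cells, against 18.1 to 57.3 at day 0. Their part in the values of the lysosomal genes was not tested. *Ctss*, which interferon is known to induce in immune cells, was at 0 in shNFIB cells at day 5 and at 0.0386 RPKM in shMLL1 cells.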

How the data were processed

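RNA-seq reads of 8 C3H10T1/2 libraries were mapped by the authors to GRCm38 (mm10) with CLC Genomics Workbench 11.0.1, and the deposited values are RPKM per gene symbol. How reads that match several places were counted is not given in the sources used here. The deposited RPKM values were used unscaled. Exon lengths came from GENCODE M21, in which 40829 symbols were found, and RPKM times length gave whole reads (within 0.02) for 96.2% to 96.6% of values between 1 and 1000 reads. Among the 43 genes, reads were whole in all libraries for 40, and not for *Atp6v0e*, *Ctsf* and *Ctsw*.

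Groups were taken from the sample labels. Each line was compared between days and each knockdown line with shControl at the same day, as log2 ratios with exact 95% intervals, and differences of changes with 95% intervals from 1/reads. The limit was 2-fold among genes with RPKM over 1 in at least 1 library. Interval coverage was tested on simulated data. Genes named with all values are both LAMP genes, the 5 highest cathepsins, the 4 highest V-ATPase genes, every expressed gene past 2-fold in any comparison, and lower expressed paralogs of a subunit. *Atp6v0b* was named after its values were seen. The genes and lists were chosen with earlier results of these data known. Alternatives were no filter, RPKM over 2, 1 added to each RPKM, median-of-ratios, quantile and *Gapdh* scaling, intervals without 0, and shares in reads. Promoters came from RefSeq (GRCm38.p6). Python 3.11.15, pandas 2.3.3 and scipy 1.17.1 were used.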

Additional observations from a re-analysis of the deposited data

Results flagged for a closer look

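The genes below moved in opposite directions in a knockdown line and in shControl cells, or lay on opposite sides of shControl cells at the 2 days, in each case with counting intervals that left out 0 on both sides. Genes whose interval held 0 on either side are not listed. With 1 library per condition these differences were not tested. The change of *Ctsl* from day 0 to day 5 was below 0 in shControl cells and above 0 in shNFIB and shMLL1 cells, with a difference of 0.82 and 0.60 on the log2 scale. The ratio of shMLL1 to shControl cells was below 0 at day 0 and above 0 at day 5 for *Atp6v1g1* (a difference of 1.02), *Atp6v0b* (1.01), *Atp6v1f* (0.88), *Ctsl* (0.60), *Lamp1* (0.53) and *Atp6v1d* (0.27). The same held for the ratio of shKDM4D to shControl cells for *Atp6v0a1* (0.39) and *Lamp2* (0.18), and for that of shNFIB to shControl cells for *Atp6v0c* (0.42).
After *Gapdh* scaling the day 5 ratio of shMLL1 cells was below 0 for *Atp6v0b* (-0.10), *Atp6v1f* (-0.14), *Lamp1* (-0.23), *Atp6v1d* (-0.23) and *Ctsl* (-0.32), and above 0 for *Atp6v1g1* (0.13). With quantile scaling it was also below 0 for *Lamp1* (-0.02) and *Ctsl* (-0.03), and with median-of-ratios scaling for *Ctsl* (-0.03). The day 0 ratio of *Atp6v0c* in shNFIB cells was 0.32 after *Gapdh* scaling.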

How the results depend on the processing

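No named value is backed by a replicate, and counting intervals understate the error between cultures. No paired analysis was possible because each condition had 1 library, so that no condition had replicates to pair. A fit of day over the 4 lines, which would take different knockdowns as replicates, was not run. Quantile scaling moved no count by over 1.5 times, and the calls that needed an interval without 0 did not either. Without a filter on RPKM, the counts of genes higher and lower at day 5 were 5 and 2 in shControl, 9 and 4 in shKDM4D, 5 and 2 in shNFIB, and 14 and 3 in shMLL1 cells. Against shControl they were 2 and 4 in shKDM4D, 4 and 4 in shNFIB, and 3 and 8 in shMLL1 cells at day 0. The day 5 counts were 3 and 3, 2 and 5, and 2 and 3. Calls near the limit that did not hold were *Atp6v1f* in shNFIB (0.94) and *Ctsd* in shMLL1 between days (1.00) with quantile scaling, and *Ctsa* in shMLL1 with median-of-ratios scaling (0.94 between days and -0.93 at day 0). Without the filter, the additional genes lie at or under an RPKM of 1 in all libraries. For the counts at other settings no share of all genes past 2-fold is given, so that they describe the processing and not these genes. With RPKM over 2, the *Atp6v1c2* calls dropped out, which left 0 higher in shNFIB at both days and 0 lower in shMLL1 at day 5. With 1 added to each RPKM, the same 3 counts were 0, and 0 were lower in shMLL1 at day 0. With median-of-ratios scaling, 1 gene at day 0 was lower in shNFIB and 2 were in shMLL1 cells. Quantile scaling moved the median of all expressed genes from 0.17 to -0.10 for shMLL1 between days. *Gapdh* itself ranged from 159 to 326 RPKM, and scaling to it moved that median to 0.50 for shKDM4D and -0.48 for shNFIB between days and to 0.67 for shNFIB at day 0. On that scale 12 genes were higher at day 5 in shKDM4D and 0 in shNFIB. Of all expressed genes, 79.1% and 22.6% were then above their day 0 level. At day 0, 2 genes were higher in shNFIB and 7 lower in shMLL1. Of all expressed genes, 89.8% were above shControl in shNFIB and 78.0% below it in shMLL1. At day 5, 2 were lower in shMLL1, with 77.1% of all expressed genes below shControl. The cathepsin and pump medians became 0.19 and -0.13 in shNFIB between days, -0.68 and -0.46 in shKDM4D and 0.59 and 0.44 in shNFIB at day 0, and the cathepsin median of shMLL1 at day 5 became -0.62. In quantile-scaled values the LAMP sum of shControl cells at day 5 was 0.961 times that at day 0, against 1.10 as deposited. As a share of reads, *Atp6v1c2* held 0.495% and 1.22% of subunit C in shControl, 0.537% and 1.18% in shKDM4D, 2.29% and 4.31% in shNFIB, and 0.232% and 0.409% in shMLL1 cells.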
